A study of Homo sapiens with 6 samples.

Results

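Stathmins and tubulin isotypes were followed across 6 tumour libraries from a sciatic nerve invasion model. The set holds 10 genes, the stathmins STMN1, STMN2 and STMN3, the alpha tubulins TUBA1A and TUBA1B, and the beta tubulins TUBB, TUBB2A, TUBB2B, TUBB3 and TUBB6. They were taken by gene symbol from a table of 17081 genes, and all 10 passed the filter on low counts that left 13382 genes for testing. The tumours were grown from DMS114, a cultured line of human small cell lung cancer origin. One group of 3 libraries came from the proximal and the other group of 3 from the distal part of the invaded region. No genotype change, drug, age or time was given for either group. The labels do not say whether libraries of a group came from separate animals, and the host species was not given in the sources used here. The series title names STMN2, so the comparison bears on whether stathmins and their tubulin partners differ along the invaded nerve.

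Microtubules are hollow polymers of alpha and beta tubulin pairs that grow and shrink by adding and losing these pairs at their ends. Stathmins bind free tubulin pairs, hold them back from the polymer and favour shrinkage, and phosphorylation of the stathmin releases its tubulin. STMN1 is the soluble form found in dividing cells, whereas STMN2 (also called SCG10) and STMN3 are membrane-anchored forms typical of neurons, where STMN2 is concentrated in growing axons. Cells carry several tubulin genes, called isotypes, and TUBB3 is the classical neuronal beta isotype.

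The 2 ends of the coding sequence bear on how tubulin RNA is controlled and how the beta isotypes are told apart. At the start, the first 4 codons encode the residues that TTC5 reads on the emerging protein when an excess of free tubulin triggers decay of tubulin RNA. These starts are shown for the 7 tubulin members from the GENCODE release 29 transcripts (GRCh38), 5′ to 3′, with those codons in capitals. The 24 bases are identical between TUBA1A and TUBA1B and between TUBB3 and TUBB6.
TUBA1A: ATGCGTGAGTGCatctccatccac
TUBA1B: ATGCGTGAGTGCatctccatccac
TUBB: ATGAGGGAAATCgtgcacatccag
TUBB2A: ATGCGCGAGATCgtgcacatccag
TUBB2B: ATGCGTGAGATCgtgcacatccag
TUBB3: ATGAGGGAGATCgtgcacatccag
TUBB6: ATGAGGGAGATCgtgcacatccag

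At the other end the beta isotypes have an acidic tail that lies on the outside of the microtubule and carries most tubulin modifications. The coding sequence of the tail, from codon 431 to the last codon before the stop, is shown in capitals after the 3 codons before it, because the isotypes are classed by it. The tails of TUBB2A and TUBB2B are nearly the same. Of its codons, 10 of 14 encode acidic residues in TUBB, 10 of 15 in TUBB2A and in TUBB2B, 11 of 20 in TUBB3 and 10 of 16 in TUBB6.
TUBB: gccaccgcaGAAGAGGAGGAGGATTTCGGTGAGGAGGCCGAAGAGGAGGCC
TUBB2A: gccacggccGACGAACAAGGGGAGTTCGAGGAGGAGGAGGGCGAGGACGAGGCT
TUBB2B: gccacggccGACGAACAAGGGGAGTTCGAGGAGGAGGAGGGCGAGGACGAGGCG
TUBB3: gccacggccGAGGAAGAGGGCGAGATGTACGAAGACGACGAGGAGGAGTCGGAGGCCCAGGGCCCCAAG
TUBB6: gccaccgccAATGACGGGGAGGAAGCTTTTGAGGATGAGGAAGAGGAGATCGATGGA

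The pairs TUBA1A and TUBA1B, and TUBB2A and TUBB2B, are nearly the same over their coding sequences, with 97.2% and 98.1% identical bases, against 80.9% to 87.7% between the other beta pairs. For each member the stretches of 100 bases of its main transcript that also occur in a transcript of another annotated gene were counted. Such stretches made up 0% for STMN1, STMN2, STMN3 and TUBB6, 5.1% for TUBB, 18.3% for TUBA1A, 37.2% for TUBA1B, 46.2% for TUBB2B and 56.4% for TUBB2A. For TUBB3 they made up 89.0%, mostly shared with AC092143.1, a read-through gene that GENCODE annotates across MC1R and TUBB3. Reads in such stretches can be split, shared or dropped by the counting. Read length was not given either, and over stretches of 50 bases the shares were 62.7% for TUBA1B, 41.1% for TUBA1A and 18.2% for TUBB. The annotation and the settings behind the deposited counts were not given in the sources used here. The levels of TUBB3, TUBB2A, TUBB2B, TUBA1B and TUBA1A are therefore uncertain, and the part of the overlap in the low TUBB3 level was not tested.

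The libraries held 16171106 to 26116191 counts each, with distal 3 the shallowest. CPM are the usual depth-scaled counts, with library sizes adjusted by the trimmed mean of M values (TMM). Of the markers listed for small cell lung cancer and its subtypes, YAP1 was read at 167 to 187 CPM and the synaptic vesicle gene SYP at 56.9 to 63.9 CPM in all 6 libraries. POU2F3 was at most 0.247 CPM. NEUROD1 was at most 0.618 CPM in 5 libraries and 6.47 CPM in distal 3. Markers of other tissues varied within groups, and how much of each came from the tumour cells was not tested. The summed level of 18 skeletal muscle markers ranged from 22.2 to 399 CPM in proximal and from 18.0 to 2682 CPM in distal libraries, and it was highest in distal 3 and next highest in proximal 3. The summed level of 12 Schwann cell markers was 169 CPM in proximal 3, 135 CPM in distal 2 and 78.5 to 93.6 CPM elsewhere. Among them MBP, a myelin protein gene, was at 12.3 CPM in proximal 3, at 11.5 CPM in distal 2 and at most 2.38 CPM elsewhere. Endothelial markers summed to 3.91 to 8.43 CPM and leukocyte markers to 1.62 to 6.17 CPM, with PECAM1 at most 0.0462 CPM and PTPRC at most 0.629 CPM. Fibroblast markers summed to 4564 to 6147 CPM, nearly all from COL3A1 (3725 to 5104 CPM), DCN and LUM, while COL1A1 was at 7.70 to 62.2 CPM and PDGFRA at most 1.28 CPM. Neuronal markers summed to 309 to 467 CPM, highest in distal 3. In such bulk samples fewer cells of a type and less RNA per cell cannot be told apart. Reads were counted on the human genome alone, and neither the host species nor any removal of host reads was given. Low marker levels therefore do not show that host cells of that type were few.

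None of the 10 members differed between distal and proximal tumour by the test used. With edgeR's quasi-likelihood test and Benjamini-Hochberg adjustment over all genes, 0 of 10 members had an adjusted p under 0.05, and the adjusted p of each was 0.9997. Over all tested genes the share that passed was also 0%. At an unadjusted p under 0.05 there was 1 member, STMN2, against 1.33% of all genes. The CPM of the groups did not overlap for 0 of 10 members, against 6.28% of all genes. Of the members 6 had higher and 4 lower fitted values in distal tumour, with a median log2 fold change of 0.02, against 0.00 over all tested genes. DESeq2 and limma-voom likewise passed 0 of 10 members, and over all genes they passed 1 (EDIL3) and 0. With samples that may not be independent animals, these p-values measure only the spread between the samples, which may be technical.

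The absence of a call came with a narrow interval for most members, about as often as over all tested genes. For 7 of 10 members the whole 95% interval stayed inside 1.5-fold up or down, against 69.1% of all genes. TUBA1B had a distal level 0.992 times the proximal one (interval 0.872 to 1.13), STMN1 1.11 times (0.965 to 1.28) and TUBB 0.969 times (0.838 to 1.12). The 3 members whose intervals crossed 1.5-fold were TUBA1A (0.910-fold to 1.52-fold), TUBB3 (0.56-fold to 1.80-fold) and STMN2 (1.22-fold to 13.4-fold).

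**Figure D1:**
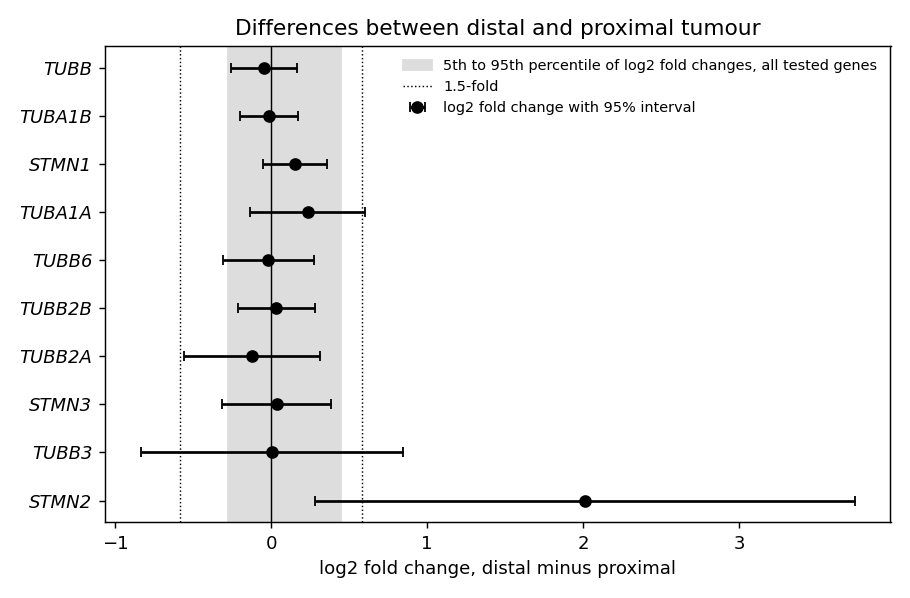
Log2 fold change of each member, distal minus proximal, with its 95% interval from edgeR's quasi-likelihood fit (3 libraries per group). The grey band spans the 5th to 95th percentile of the log2 fold changes of all 13382 tested genes and dotted lines mark 1.5-fold. The intervals of 7 members lie between the dotted lines and that of STMN2 reaches from 0.28 to 3.74.

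Levels of different genes can be compared only per length, so CPM were divided by the length of the main GENCODE transcript in kilobases. On this scale TUBB was highest, with a median over the 6 libraries of 855 CPM per kilobase. It was followed by TUBA1B at 590.5, STMN1 at 486, TUBA1A at 159.8, TUBB6 at 53.9, TUBB2B at 39.6, TUBB2A at 22.0, STMN3 at 6.92, TUBB3 at 1.66 and STMN2 at 0.230. Neighbours in this order had ranges over the 6 libraries that did not overlap, except TUBB6 with TUBB2B and TUBB3 with STMN2. Together the 10 genes took 0.447% to 0.486% of all counts.

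**Figure D2:**
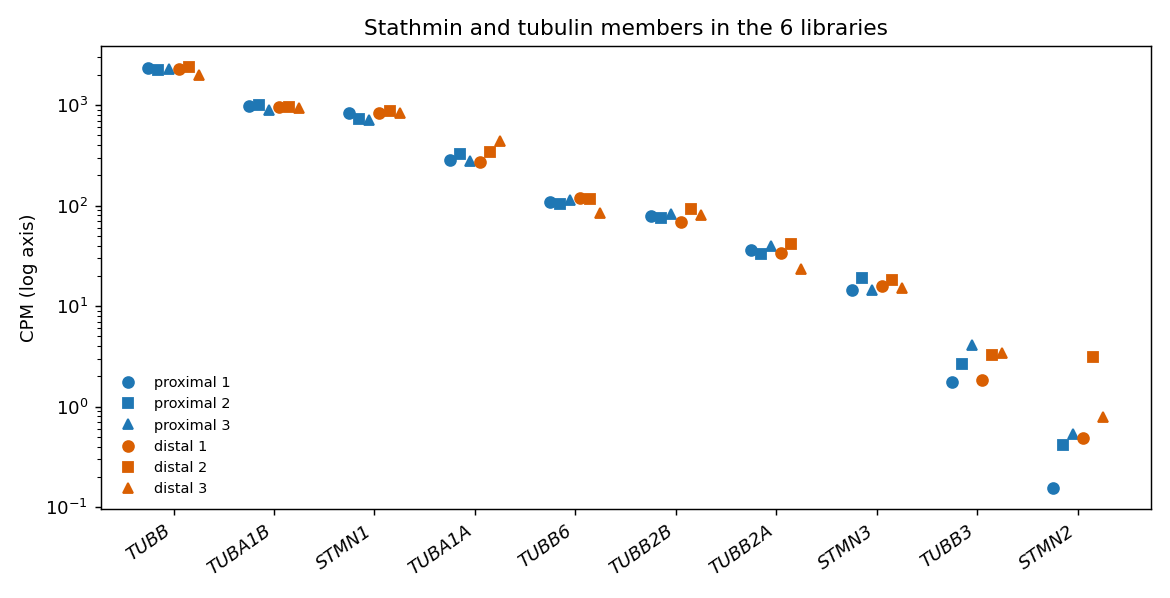
CPM of the 10 members (log axis) in the 3 proximal (blue) and 3 distal (orange) libraries, ordered by the median level per kilobase of transcript. Each point is 1 library. From TUBB to STMN3 the libraries lie close together, whereas STMN2 runs from 0.155 CPM in proximal 1 to 3.13 CPM in distal 2.

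STMN1, the stathmin of proliferating cells (chromosome 1, 25884179 to 25906880, GRCh38), was by far the most abundant stathmin. It had 836, 736 and 708 CPM in proximal 1 to 3, against 832, 870.5 and 831 CPM in distal 1 to 3. The distal libraries were close together, and the groups overlapped only through proximal 1, which exceeded distal 1 and distal 3. The mean was 759.9 ± 67.2 CPM proximally against 844.5 ± 22.5 CPM distally (SD, n = 3 each), and the fitted log2 fold change 0.15 (SE 0.09). It was 0.22 without proximal 1 and 0.10 without proximal 3.

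STMN1 was also set against its binding partners within each library, where scaling cancels out. Per TUBB read there were 0.361, 0.327 and 0.307 STMN1 reads in the proximal and 0.368, 0.363 and 0.415 in the distal libraries. The groups did not overlap, though proximal 1 and distal 2 nearly touched. Ratios to TUBB lay higher in every distal than in any proximal library for 3.62% of all other tested genes. Per TUBA1B read there were 0.853, 0.733 and 0.783 STMN1 reads in the proximal and 0.871, 0.901 and 0.881 in the distal libraries. The groups were again apart, as they were in this direction for 3.06% of all genes. These were 2 of 10 ratios computed, they share STMN1, and no test was made of them. The high ratio to TUBB in distal 3 went with its low TUBB level.

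STMN2, the axonal stathmin named in the title (chromosome 8, 79611117 to 79666158, GRCh38), had 4, 9 and 12 reads in the proximal and 11, 76 and 13 reads in the distal libraries. That is 0.155, 0.416 and 0.539 CPM against 0.485, 3.13 and 0.794 CPM. Only distal 2 stood apart, with 76 of the 125 reads of the gene, and its Poisson interval (2.47 to 3.92 CPM) exceeded that of each other library. Distal 1 and distal 3 had intervals that overlapped with those of proximal 2 and proximal 3. Against proximal 1 (0.0422 to 0.396 CPM), the interval of distal 3 (0.423 to 1.36 CPM) lay higher and that of distal 1 overlapped. The log2 fold change was 2.01 (SE 0.76) in all libraries and 0.78 without distal 2. It was between 1.62 and 2.42 with any other library left out. Beside this, MBP was at 11.5 CPM in distal 2 and at 12.3 CPM in proximal 3, where STMN2 was at 0.539 CPM, and the part of nerve tissue in the STMN2 reads was not tested. Other neuronal markers ran from at most 0.122 CPM for the synaptotagmin SYT1 and at most 0.244 CPM for the axonal growth gene GAP43 to 66.8 to 104 CPM for MAPT and 54.7 to 119 CPM for NEFL.

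**Figure D3:**
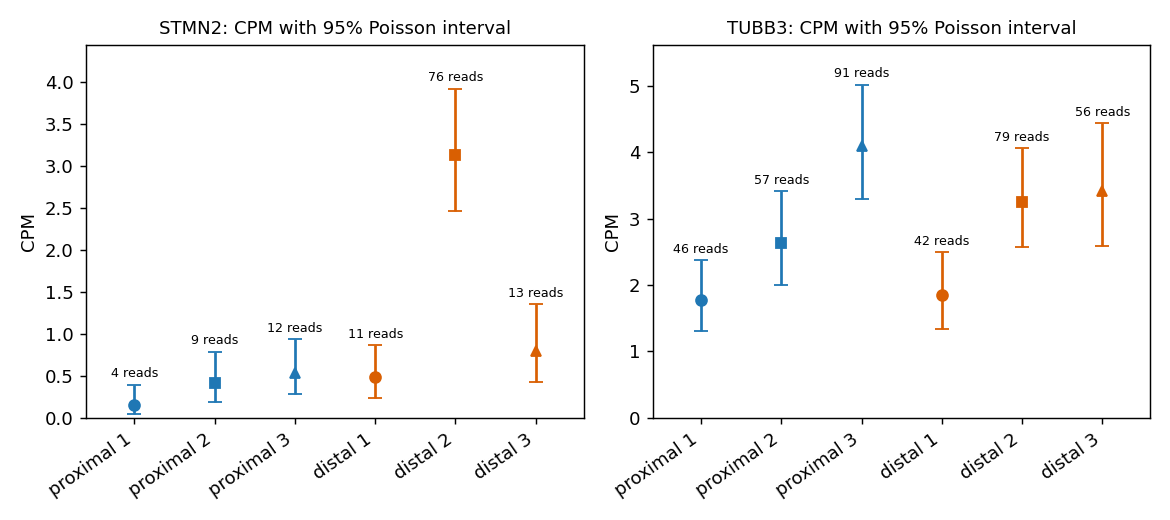
CPM of the 2 members with the fewest reads, STMN2 (left) and TUBB3 (right), in each library, with the 95% Poisson interval of the count, which covers counting error only, and the number of reads. The interval of STMN2 in distal 2, from 2.47 to 3.92 CPM, lies above all others, while TUBB3 in proximal 3 reaches 4.09 CPM.

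STMN3, a second neuronal stathmin (chromosome 20, 63639712 to 63653424), had 14.4, 19.3 and 14.5 CPM proximally, and 15.9, 18.1 and 15.3 CPM distally. Its highest values were in proximal 2 and distal 2 and the groups overlapped throughout. Its log2 fold change was 0.04 (SE 0.16), and the sign changed when proximal 1, proximal 3 or distal 2 was left out. The family's remaining neuronal gene, STMN4, had 0 reads in 4 libraries, 1 in distal 1 and 2 in distal 3. With 0 reads, levels up to 0.116 to 0.139 CPM (3 reads) would be missed.

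TUBA1B, the main alpha tubulin of dividing cells (chromosome 12, 49127782 to 49131395), was the steadiest member. It had 980.2, 1004 and 904 CPM proximally, and 956, 966 and 943 CPM distally. The distal values lay inside the proximal range. Its coefficient of variation over the 6 libraries was 3.54%, where counting alone gives about 0.685% and the median of 2451 tested genes in its abundance class was 7.47%.

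TUBA1A, the alpha isotype prominent in developing neurons (chromosome 12, 49184795 to 49189080), varied more. It had 287, 325 and 281 CPM proximally, and 269, 346 and 435 CPM distally. Distal 3 was highest and distal 1 lowest, so both extremes were in the distal group. Means were 297.6 ± 23.7 and 350.0 ± 83.3 CPM (SD, n = 3 each). With all libraries the TUBA1A log2 fold change was 0.23 (SE 0.16), and it was 0.05 without distal 3, and 0.39 without distal 1. The share of TUBA1A in all reads of the 6 alpha tubulin genes was 18.9% to 22.9% in 5 libraries and 27.4% in distal 3, where that of TUBA1B was lowest at 59.3%. Of 13 neuronal markers 7 were also highest there, among them the neurofilament gene NEFL at 119 CPM, whereas others such as NEFH (66.5 CPM) and ELAVL4 (6.53 CPM) were not. Their part in TUBA1A was not tested. With TUBA1A, TUBA1B and TUBA1C added to 1 row the log2 fold change was 0.05 (SE 0.09, 95% interval -0.15 to 0.24).

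TUBB, the widely expressed beta tubulin (chromosome 6, 30720352 to 30725422), made up most beta tubulin reads. It had 2317, 2251 and 2304 CPM proximally, and 2264, 2396 and 2001 CPM distally. The other 5 libraries lay within a narrow band and distal 3 below it. For TUBB the log2 fold change was -0.05 (SE 0.09) and became 0.02 without distal 3. Its share of the reads of the 9 beta tubulin genes was nearly constant, at 85.6% to 86.2%, also in distal 3.

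TUBB6, a beta isotype known for destabilising microtubules (chromosome 18, 12307669 to 12329826), had 109, 103 and 113 CPM proximally, and 120.5, 116 and 83.8 CPM distally. Distal 1 and distal 2 were the highest and distal 3 the lowest, so the group mean hid opposite values. The log2 fold change was -0.02 (SE 0.13) with all libraries and 0.13 without distal 3.

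TUBB2A and TUBB2B are neighbouring beta genes of the brain-enriched class on chromosome 6, at 3153666 to 3157544 and 3224277 to 3227653. TUBB2A had 36.1, 32.7 and 39.8 CPM proximally, and 34.1, 41.7 and 23.6 CPM distally. TUBB2B had 79.3, 75.6 and 82.3 CPM proximally, and 69.4, 92.4 and 80.8 CPM distally. Both were highest in distal 2, but in distal 3 only TUBB2A was low. There were 2.03 to 2.31 TUBB2B reads per TUBB2A read in 5 libraries and 3.43 in distal 3. The log2 fold change was -0.13 (SE 0.19) for TUBB2A and 0.03 (SE 0.11) for TUBB2B, and -0.02 (SE 0.11) with their reads added. That of TUBB2A was 0.07 without distal 3, -0.05 without proximal 3, -0.19 without proximal 2 and -0.33 without distal 2. Given the shared stretches, a change in how reads were divided between the pair was not tested.

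TUBB3, the neuronal beta isotype (chromosome 16, 89921925 to 89936097), was read at a low level, with 42 to 91 reads per library. It had 1.78, 2.63 and 4.09 CPM proximally, and 1.85, 3.26 and 3.42 CPM distally. Each group held low and high libraries, and the means were alike at 2.83 ± 1.17 and 2.84 ± 0.862 CPM (SD, n = 3 each). The interval of proximal 3 (3.29 to 5.02 CPM) lay above those of proximal 1 (1.30 to 2.37 CPM) and distal 1 (1.33 to 2.50 CPM), so the spread within groups was larger than counting error. The 3 libraries with the most TUBB3, proximal 3, distal 3 and distal 2, were also the 3 with the most MBP. Schwann cell markers were mixed in distal 3, where 5 of 12 were highest but PMP22 (13.7 CPM) and NGFR (1.47 CPM) were lowest. Their sum there was 93.6 CPM, against 91.1 CPM in distal 1. The part of nerve tissue in the TUBB3 level was not tested. The log2 fold change was 0.00 (SE 0.38) and was -0.25 without proximal 1 and 0.36 without proximal 3.

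Distal 3 was at the edge of the range for several isotypes. Among 15 tubulin and stathmin genes whose median over the libraries reached 10 CPM, distal 3 was the lowest library for 6 (TUBB, TUBB2A, TUBB6, TUBA1C, TUBB4B and the gamma tubulin TUBG1). It was the highest for 3 (TUBA1A, TUBB4A and the delta tubulin TUBD1). Distal 2 was highest for 5, namely STMN1, TUBB, TUBB2A, TUBB2B and TUBA1C. How often distal 3 or distal 2 was the extreme library over all tested genes was not counted. These counts may therefore not be particular to the tubulin and stathmin genes. TUBA4A, an alpha isotype of muscle and nerve, had 1.04, 1.94 and 11.6 CPM proximally, and 1.23, 2.18 and 44.3 CPM distally. Its 2 highest libraries, distal 3 and proximal 3, were the 2 with the most muscle markers, and ACTA1, skeletal muscle actin, was at 302 CPM and 49.8 CPM there. TUBB4A, a beta isotype of brain, was at 27.7 CPM in distal 3 and 17.4 to 20.9 CPM elsewhere. Against the median of the libraries, distal 3 deviated on the log2 scale by 0.51 for TUBA1A, by 0.49 for TUBB4A, by -0.58 for TUBB2A and by -0.41 for TUBB6. Proximal 3 was next in muscle markers, with a sum of 399 CPM against 2682 CPM in distal 3. There TUBA1A deviated by -0.12, TUBB4A by 0.07, TUBB2A by 0.18 and TUBB6 by 0.02. The part of muscle tissue in the deviations of either library was not tested.

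**Figure D4:**
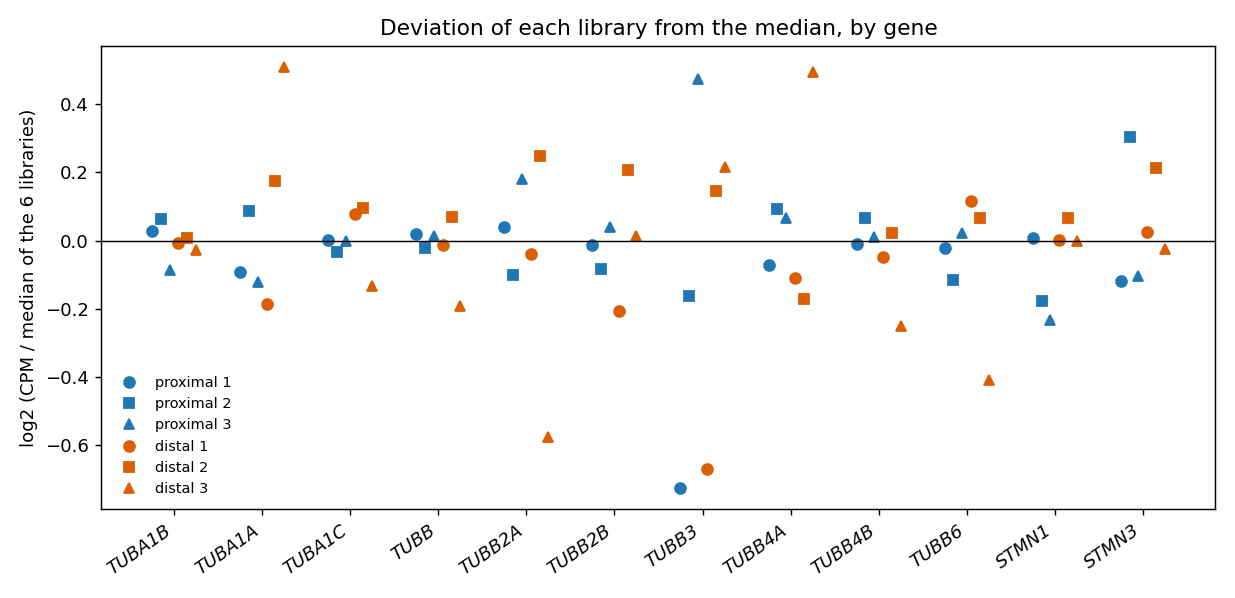
Log2 of CPM over the median of the 6 libraries for stathmins and alpha and beta tubulin genes (STMN2 is not shown, nor is TUBA4A, which reaches 4.43 in distal 3). Each point is 1 library. Distal 3 (orange triangle) lies at 0.51 for TUBA1A and at -0.58 for TUBB2A, and the other libraries lie nearer to 0 for these genes.

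**Figure D5:**
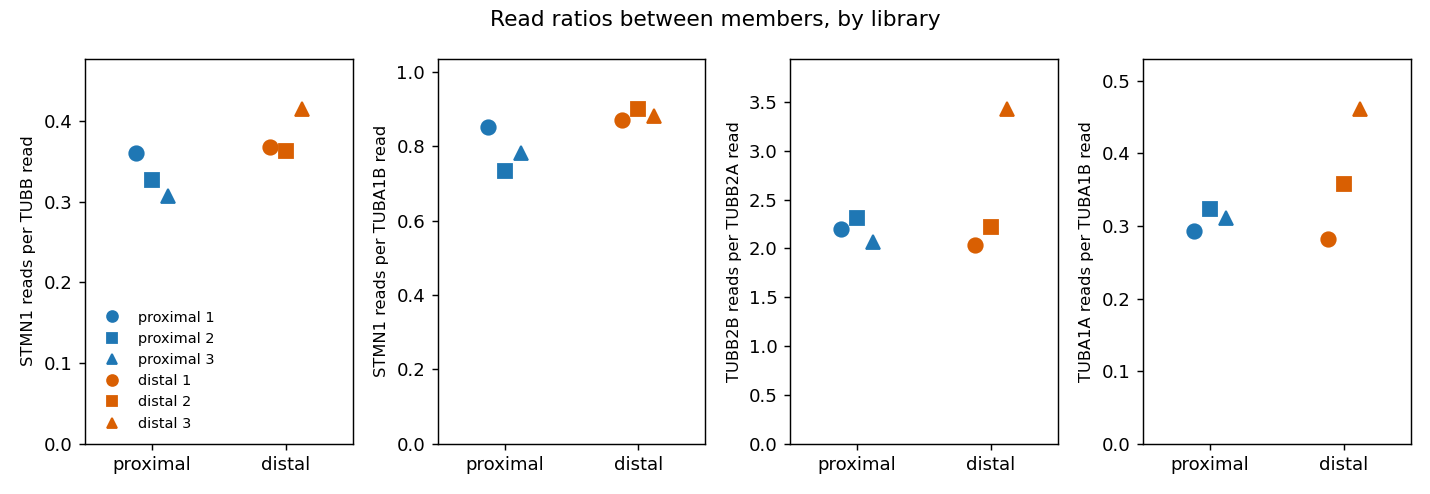
Read ratios between members in each library, proximal (blue) and distal (orange). STMN1 per TUBB and per TUBA1B read lie higher in the 3 distal libraries than in the 3 proximal ones, while TUBB2B per TUBB2A and TUBA1A per TUBA1B read stand out in distal 3 only, at 3.43 and 0.462.

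None of the tested genes that make, modify or regulate microtubules passed the test either. Of the other tubulin isotypes 12 had a row and 9 were tested, with 7 higher, 2 lower and a median log2 fold change of 0.05. TUBB8, a beta isotype of the oocyte with close copies elsewhere in the genome, had 6.43 ± 0.579 CPM proximally against 7.53 ± 0.340 CPM distally (SD, n = 3 each). It was the only 1 of these 9 whose groups did not overlap, against 6.28% of all tested genes. TUBB4B, a beta isotype of cilia, had a log2 fold change of -0.11 (SE 0.09). All 23 genes of tubulin folding and dosage (chaperonin, prefoldin, tubulin cofactors and TTC5) were tested, and 14 were higher and 9 lower. The lowest p there were those of CCT5, a chaperonin subunit, at a log2 fold change of 0.18, and PFDN5, a prefoldin subunit, at 0.11. The intervals of all 23 lay within 1.5-fold, against 69.1% of all tested genes. Without distal 3 the log2 fold change was 0.0303 for CCT5, 0.0512 for PFDN5 and -0.0348 for TUBB4B, and without proximal 3 it was 0.0957 for CCT5 and 0.0430 for PFDN5. That of TUBB4B was -0.17 without distal 2.

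Enzymes that modify tubulin were higher for 14 and lower for 9 of 23 tested genes, with the acetyltransferase ATAT1 at 0.24 (SE 0.12) and VASH2, which removes the last tyrosine of alpha tubulin, at 0.25 (SE 0.15). Of 18 genes of microtubule nucleation 8 were higher and 10 lower, with CDK5RAP2, which recruits the gamma-tubulin ring complex, at -0.11 and the augmin subunit HAUS7 at 0.55 from low means of 0.464 and 0.673 CPM. Of 15 genes of plus-end growth 7 were higher and 8 lower, with SLAIN2 at -0.23 and the microtubule polymerase CKAP5 at -0.09. Of 15 severing and depolymerising genes 10 were higher and 5 lower, with KIF19 at 0.59 from means of 0.760 and 1.14 CPM and KIF24 at -0.14. Of 24 genes of stathmin phosphorylation and STMN2 control 11 were higher and 13 lower. PRKACA, a catalytic subunit of protein kinase A, which phosphorylates stathmins, averaged 85.4 CPM proximally against 74.6 CPM distally, without overlap. Groups did not overlap for 2 of these 24 genes, against 6.28% of all tested genes. Several of these values moved by over 1.5 times when 1 library was left out. Without distal 3 ATAT1 was at 0.16, VASH2 at 0.0555, CKAP5 at -0.0585 and KIF24 at -0.0441. Without proximal 2 SLAIN2 was at -0.0683, CKAP5 at -0.0291 and KIF24 at -0.0405. Without proximal 3 CDK5RAP2 was at -0.0540, PRKACA at -0.12, CKAP5 at -0.14 and HAUS7 at 0.91. Without proximal 1 KIF24 was at -0.23, KIF19 at 0.35 and CDK5RAP2 at -0.16. PFDN5 was at 0.20 without proximal 1, and KIF24 at -0.22 without distal 1. Intervals lay within 1.5-fold for 7 of 9 other isotypes, 15 of 23 modifying, 17 of 18 nucleation and 15 of 15 plus-end genes. The same held for 13 of 15 severing and depolymerising genes and 23 of 24 genes of stathmin phosphorylation and STMN2 control. List medians ran from -0.03 for plus-end growth to 0.05 for the other isotypes.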

How the data were processed

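Poly(A) RNA of 3 proximal and 3 distal tumour samples had been sequenced. The table the authors deposited holds raw counts, 1 row per gene symbol. The submitters' processing notes name GRCh38, STAR 2.7.3a, featureCounts 2.0.1, Trimmomatic 0.39, DESeq2 and bcl2fastq, with no settings. Whether host reads were removed, and the annotation, strand setting and read length, were not given in the sources used here.

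Counts were fitted in R 4.3.3 with edgeR 4.0.16 over the whole table (filterByExpr, TMM scaling, robust quasi-likelihood test, group only, Benjamini-Hochberg adjustment at 0.05). The standard error was the absolute log2 fold change over the square root of F. Poisson intervals cover counting error only. The procedure was tested on simulated data. Alternatives were other scalings and filters, DESeq2 1.42.0, limma-voom (limma 3.58.1), the replicate number as a block, libraries left out, and near-identical genes added. Gene positions are RefSeq's (GRCh38.p14), and transcripts those of GENCODE release 29, the principal one per gene. From each pathway list, the 2 genes with the lowest p were named, since none passed. One such gene and some marker genes are not reported here. TUBA4A, TUBB4A and the other isotypes named for distal 3 were chosen after their values were seen. The members and lists were chosen with earlier results of these data known.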

Additional observations from a re-analysis of the deposited data

How the results depend on the processing

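No tested member passed in any alternative fit of the whole table, and 6 to 8 had an interval inside 1.5-fold. STMN2 was not tested with the filter of 1 CPM in 3 libraries, and summing near-identical genes gave values for TUBA1 and TUBB2 rows only. Over all genes 1 passed in DESeq2, and 0 to 1 with 1 library left out (1 without distal 1). Of the single-gene values, 329 kept their sign and side of the threshold and 22 changed sign, mostly of members whose log2 fold change lay near 0. With both libraries numbered 3 left out, log2 fold changes were 0.0279 for TUBB, 0.139 for TUBB2A, 0.158 for TUBB6, -0.0563 for CCT5 and -0.0155 for PFDN5. With near-identical genes added they were 0.0472 for TUBA1B and -0.0155 for TUBB2B, and with no low-count filter -0.0021 for TUBB3. The ranges with 1 library left out were -0.0439 to 0.1865 for STMN3, -0.0553 to 0.0181 for TUBA1B, -0.1062 to 0.0247 for TUBB, -0.3277 to 0.0666 for TUBB2A, -0.0781 to 0.1286 for TUBB2B, -0.2497 to 0.364 for TUBB3, -0.1166 to 0.128 for TUBB6 and -1.4996 to 3.406 for TUBA4A. The cause of these shifts was not tested. With the replicate number as a block, STMN2 had a log2 fold change of 1.75 and TUBA4A of 0.94, and 0 genes passed. The numbers share no stated source. Same-numbered libraries deviated together for number 1 (correlation over genes 0.361) and weakly for number 3 (0.182) but not for number 2 (-0.114). The distal library with the highest correlation was distal 1 for proximal 1 and distal 3 for both proximal 2 and proximal 3. The numbers therefore do not set a clear pairing. With limma-voom TUBA4A was at 0.55. Depth limits STMN2, STMN4 and TUBB3, which had at most 91 reads in any library.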
